A study of Homo sapiens with 10 samples.

Results

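Levels of 10 genes of arginine and polyamine metabolism were followed in K562 cells treated with bromodomain inhibitors of CREBBP and EP300. They were taken by symbol from an RNA-seq table of 23284 genes: ASS1, ASL, ARG2, SLC7A1, ODC1, SRM, SMS, SAT1, OAZ1 and AZIN1. ASS1 was picked on its measured level, because it was about 10-fold lower with 5 µM CBP30 than with the vehicle, so its values in any comparison that uses those samples are a description with no test. The other 9 were chosen by their place in the pathway, with earlier results known. K562 is an established human chronic myeloid leukaemia cell line, grown in RPMI with serum. Cells were kept for 48 h with the vehicle DMSO, 2 µM CBP30, 5 µM CBP30, 2 µM I-CBP112 or 5 µM I-CBP112, with 2 biological replicates per group and 10 samples in all. CBP30 and I-CBP112 are small molecules that occupy the bromodomains of CREBBP and EP300, the modules with which these histone acetyltransferases bind acetylated lysine. All groups are of this 1 cell line and 1 time, and DMSO is the shared control.

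Arginine is taken up through cationic amino acid carriers such as the product of SLC7A1, or rebuilt from citrulline by argininosuccinate synthase (ASS1) and argininosuccinate lyase (ASL). Arginase, of which ARG2 is the mitochondrial form, cuts arginine into urea and ornithine. Ornithine decarboxylase (ODC1) turns ornithine into putrescine, which spermidine synthase (SRM) and spermine synthase (SMS) extend to spermidine and spermine. Antizyme (OAZ1) binds ODC1 and sends it to the proteasome, the antizyme inhibitor AZIN1 holds antizyme away from ODC1, and the acetyltransferase SAT1 marks spermidine and spermine for export or oxidation. ODC1 and SRM are known targets of MYC, a transcription factor that binds E-boxes. ASS1 is known to be silenced in some tumours, which then depend on arginine from outside.

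Values were FPKM, fragments scaled by transcript length and by the number of mapped fragments, so levels can be compared between genes. Read totals are not part of such a table and depth is unknown here. The 10 markers of erythroid cells were all at 1 FPKM or more in every sample, and of 6 markers of other cell types 1 was (EPCAM). The summed level of the erythroid markers was 1919 to 1968 FPKM with DMSO, 709 to 929 with 2 µM CBP30, 630 to 657 with 5 µM CBP30, 1148 to 1271 with 2 µM I-CBP112 and 1103 to 1194 with 5 µM I-CBP112. Their part in the changes given here was not tested. Fewer cells of a kind and less RNA per cell cannot be told apart in such samples. Replicate 1 of 2 µM CBP30 stood apart from the other libraries. In it EEF1A1, an abundant translation factor, was listed at 0, against 5338 to 6661 FPKM elsewhere, and the difference from DMSO had a Spearman correlation of -0.51 with transcript length across genes. In the other libraries that correlation ran from -0.17 to 0.21, and it was 0.21 in both libraries of 5 µM CBP30.

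The promoters of 3 genes are shown because these genes were lower with 5 µM CBP30 and because they lie at the entry (ASS1) and the core (ODC1, SRM) of the pathway. ASS1 lies on chromosome 9 at 133320348 to 133376661 of hg19, on the forward strand, with 15 exons in the GENCODE transcript used. SRM lies on chromosome 1 at 11114646 to 11120075 and ODC1 on chromosome 2 at 10580094 to 10588453, both on the reverse strand, with 8 and 12 exons. Each sequence holds the 250 bases before the annotated start, 5′ to 3′ on the strand of the gene, from the hg19 reference. The windows of ASS1 and ODC1 overlap no annotated exon, and that of SRM overlaps one by 2 bases. Capitals mark CACGTG, the E-box that MYC is known to bind, and TATAA, the core of a TATA box, read on either strand.
ASS1, chr9:133320098-133320347, forward: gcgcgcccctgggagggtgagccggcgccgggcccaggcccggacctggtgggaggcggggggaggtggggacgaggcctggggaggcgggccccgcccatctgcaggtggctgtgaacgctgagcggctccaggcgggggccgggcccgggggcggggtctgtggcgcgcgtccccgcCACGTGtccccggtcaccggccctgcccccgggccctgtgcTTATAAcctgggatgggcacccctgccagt
SRM, chr1:11120076-11120325, reverse: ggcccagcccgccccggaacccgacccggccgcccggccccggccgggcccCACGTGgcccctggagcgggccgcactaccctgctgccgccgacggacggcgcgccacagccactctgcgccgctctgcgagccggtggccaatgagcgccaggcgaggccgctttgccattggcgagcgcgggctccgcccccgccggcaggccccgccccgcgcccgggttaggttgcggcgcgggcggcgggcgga
ODC1, chr2:10588454-10588703, reverse: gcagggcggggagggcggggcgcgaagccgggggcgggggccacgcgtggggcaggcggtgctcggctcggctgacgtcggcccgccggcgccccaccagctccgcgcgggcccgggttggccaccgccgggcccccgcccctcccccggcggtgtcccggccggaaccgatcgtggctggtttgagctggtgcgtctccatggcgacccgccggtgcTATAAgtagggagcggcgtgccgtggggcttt

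CACGTG stood 66 to 71 bases before the start of ASS1 and 194 to 199 bases before that of SRM. These were the 2 of the 10 genes with that hexamer in the window, against 7.75% of 19844 promoters of the same length. TATAA was found in 4 of the 10 windows, those of ASS1, ODC1, OAZ1 and AZIN1, against 15.9% of all promoters. The 8 letters TGACGTCA, the cAMP response element, were in the window of ARG2, against 2.39% of all promoters. GATAA, the letters bound by GATA factors, was in none of the 10 windows, against 16.1% of all promoters. A match says only that the letters are there.

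With DMSO the 10 genes spanned a wide range of levels. OAZ1 was the most abundant at 568 ± 16.3 FPKM (mean ± SD, n = 2), followed by ODC1 at 243 ± 10.8 FPKM. SRM at 171 ± 5.12 FPKM and SMS at 166 ± 1.90 FPKM had overlapping samples. ASS1 at 50.8 ± 0.0968, AZIN1 at 44.4 ± 2.97, SAT1 at 39.9 ± 3.36 and SLC7A1 at 36.2 ± 0.460 FPKM were each apart from their neighbours in this order. ARG2 at 22.4 ± 1.35 and ASL at 20.8 ± 1.09 FPKM overlapped at the lower end. The genes that turn ornithine into polyamines were thus measured well above ASS1, ASL and ARG2.

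**Figure D1:**
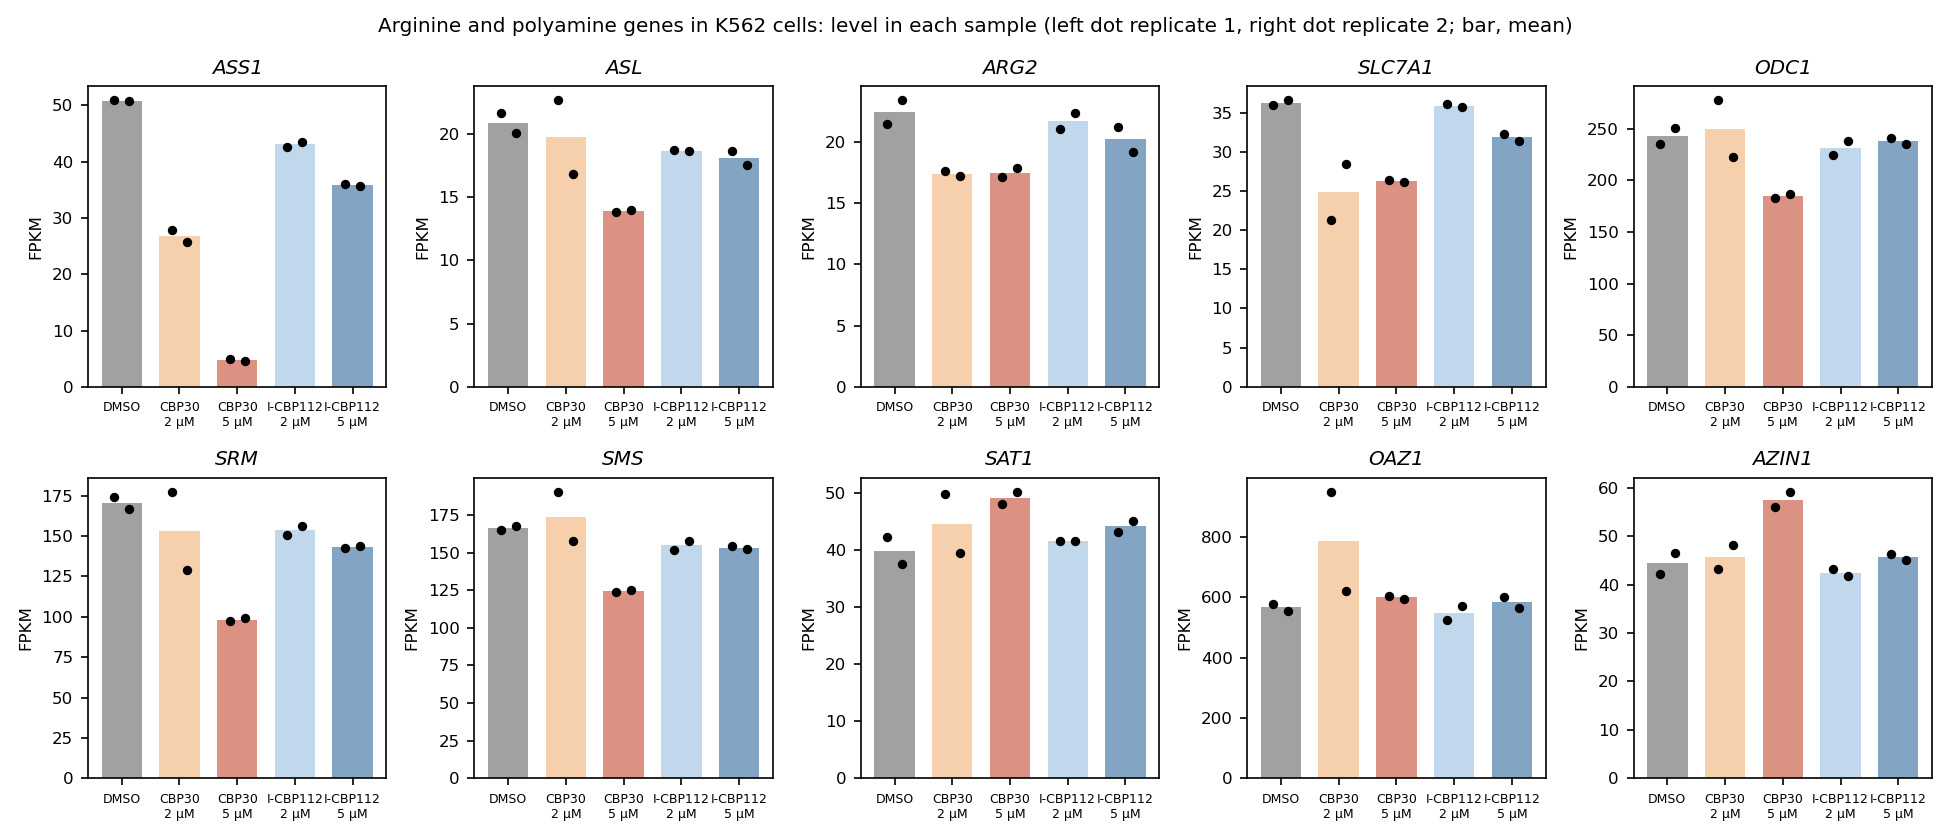
Level in FPKM (vertical axes, each from 0) of the 10 genes in the 5 groups (horizontal axes), with bars for means and dots for the 2 replicates. ASS1 is lowest with 5 µM CBP30, at 4.99 and 4.52 FPKM against 50.9 and 50.7 with DMSO, and the dots of 2 µM CBP30 lie far apart for OAZ1.

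ASS1 had the widest range of the 10 genes across the groups, relative to its level. Replicate 1 is given before replicate 2 here and for the genes that follow. ASS1 stood at 50.9 and 50.7 FPKM with DMSO, 27.9 and 25.7 at 2 µM CBP30, and 4.99 and 4.52 at 5 µM CBP30. ASS1 under I-CBP112 was at 42.6 and 43.5 FPKM at 2 µM and 36.1 and 35.7 FPKM at 5 µM. No sample of any group overlapped a sample of another, and each compound gave a lower level at its higher dose. Mean levels with CBP30 were 52.8% of the DMSO mean at 2 µM and 9.35% at 5 µM, the latter 10.7-fold lower than DMSO. I-CBP112 left 84.8% at 2 µM and 70.6% at 5 µM. These values are a description. The comparison of both compounds at 2 µM uses no sample on which ASS1 was picked, although the spread is estimated over all 10 samples. There ASS1 was lower with CBP30 than with I-CBP112 by a log2 fold change of -0.66 ± 0.06 (SE) on the log2(FPKM + 1) scale, and this difference passed the test (limma, Benjamini-Hochberg adjusted p = 0.00154). It also passed in each fit with 1 sample left out, with values from -0.72 to -0.61. In a fit of only those 4 samples it did not pass (limma adjusted p = 0.152), nor did any other of the 10 genes. Of all 12788 genes 9 were lower and 5 higher there. The same kind of fit called 3531 lower and 3025 higher between the compounds at 5 µM. The call of ASS1 at 2 µM thus rests on a spread shared with the other groups. Between 5 and 2 µM I-CBP112 the log2 difference of ASS1 was -0.26 ± 0.06 (95% interval -0.40 to -0.12), which did not pass (limma adjusted p = 0.519), although the 2 groups did not overlap.

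ASL, the enzyme that follows ASS1, was measured at 21.6 and 20.0 FPKM with DMSO, 22.6 and 16.8 at 2 µM CBP30, and 13.8 and 14.0 at 5 µM CBP30. ASL under I-CBP112 was at 18.7 and 18.6 FPKM at 2 µM and 18.6 and 17.5 FPKM at 5 µM. Its samples with 5 µM CBP30 lay below those of every other group, and those with 2 µM CBP30 spanned the DMSO samples. ARG2 was at 21.5 and 23.4 FPKM with DMSO, 17.6 and 17.2 at 2 µM CBP30, and 17.1 and 17.9 at 5 µM CBP30. ARG2 under I-CBP112 was at 21.0 and 22.3 FPKM at 2 µM and 21.2 and 19.2 FPKM at 5 µM. The samples of this arginase overlapped between the doses of CBP30, and all 4 were below every sample of DMSO and of I-CBP112. SLC7A1, the arginine carrier, was at 35.9 and 36.6 FPKM with DMSO, 21.3 and 28.5 at 2 µM CBP30, and 26.3 and 26.1 at 5 µM CBP30. SLC7A1 under I-CBP112 was at 36.1 and 35.7 FPKM at 2 µM and 32.3 and 31.4 FPKM at 5 µM. All 4 samples with CBP30 were below the samples of the other groups, with wide scatter at 2 µM.

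ODC1, which makes putrescine, was at 236 and 251 FPKM with DMSO, 278 and 222 at 2 µM CBP30, and 182 and 187 at 5 µM CBP30. ODC1 under I-CBP112 was at 224 and 239 FPKM at 2 µM and 241 and 235 FPKM at 5 µM. SRM was at 174 and 167 FPKM with DMSO, 177 and 129 at 2 µM CBP30, and 97.3 and 99.2 at 5 µM CBP30. SRM under I-CBP112 was at 151 and 156 FPKM at 2 µM and 142 and 144 FPKM at 5 µM. Both were below every other group with 5 µM CBP30, where SRM had 57.6% of its DMSO mean and ODC1 76.0%. SMS was at 165 and 168 FPKM with DMSO, 190.4 and 158 at 2 µM CBP30, and 124 and 125 at 5 µM CBP30. SMS under I-CBP112 was at 152 and 158 FPKM at 2 µM and 154 and 152 FPKM at 5 µM. It too was lowest with 5 µM CBP30, at 74.8% of its DMSO mean, and both I-CBP112 groups lay below DMSO without overlap.

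The regulators of ODC1 (OAZ1, AZIN1) and SAT1, of polyamine breakdown, followed another order. OAZ1 was at 579 and 556 FPKM with DMSO, 951 and 623 at 2 µM CBP30, and 604 and 596 at 5 µM CBP30. OAZ1 under I-CBP112 was at 526 and 572 FPKM at 2 µM and 601 and 566 FPKM at 5 µM. The value of 951 came from the library that stood apart, and the remaining 9 values lay between 526 and 623. AZIN1, on chromosome 8, was at 42.3 and 46.5 FPKM with DMSO, 43.2 and 48.2 at 2 µM CBP30, and 56.0 and 59.2 at 5 µM CBP30. AZIN1 under I-CBP112 was at 43.2 and 41.7 FPKM at 2 µM and 46.3 and 45.2 FPKM at 5 µM. Its samples with 5 µM CBP30 were above all others. SAT1 was at 42.2 and 37.5 FPKM with DMSO, 49.8 and 39.4 at 2 µM CBP30, and 48.0 and 50.2 at 5 µM CBP30. SAT1 under I-CBP112 was at 41.6 and 41.6 FPKM at 2 µM and 43.2 and 45.1 FPKM at 5 µM. It was above DMSO at 5 µM of either compound and overlapped DMSO at 2 µM of either.

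With 5 µM CBP30 against DMSO, ASL, ARG2, SLC7A1, ODC1, SRM and SMS fell and AZIN1 rose. Of the 9 genes tested, 6 fell and 1 rose, where 25.4% of the 12788 genes tested fell and 21.2% rose. SRM fell by 0.79 ± 0.13 on the log2 scale (limma, Benjamini-Hochberg adjusted p = 0.00236) and ASL by 0.55 ± 0.12 (adjusted p = 0.00803). SLC7A1 fell by 0.45 ± 0.11 (adjusted p = 0.0148), SMS by 0.42 ± 0.08 (adjusted p = 0.00595), ODC1 by 0.39 ± 0.10 (adjusted p = 0.0164) and ARG2 by 0.34 ± 0.07 (adjusted p = 0.00564), all from the same limma fit. AZIN1 rose by 0.37 ± 0.07 (limma adjusted p = 0.00498). The log2 difference of SAT1 was 0.30 ± 0.11 (limma adjusted p = 0.0578), and it passed when either library of 2 µM CBP30 was left out. OAZ1 differed by 0.08 ± 0.17 (95% interval -0.33 to 0.49), and by 0.24, which passed, after each sample's trend of level with transcript length was removed (limma adjusted p = 0.0301). The median over the 9 genes was -0.39, against -0.01 over all genes tested. Without any 1 library of DMSO or of 5 µM CBP30 fewer genes passed, over all genes as well as among the 9. The calls of SLC7A1 and ODC1 were lost in each of these fits, and that of ASL without replicate 1 of DMSO. Those of ARG2, SRM, SMS and AZIN1 were kept. With the length trend removed the 6 falls and 1 rise passed too, where 3509 of 11758 genes fell and 3449 rose. Over all alternative fits the log2 difference ran from -0.82 to -0.64 for SRM, -0.60 to -0.45 for ASL and -0.44 to -0.31 for ODC1.

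**Figure D2:**
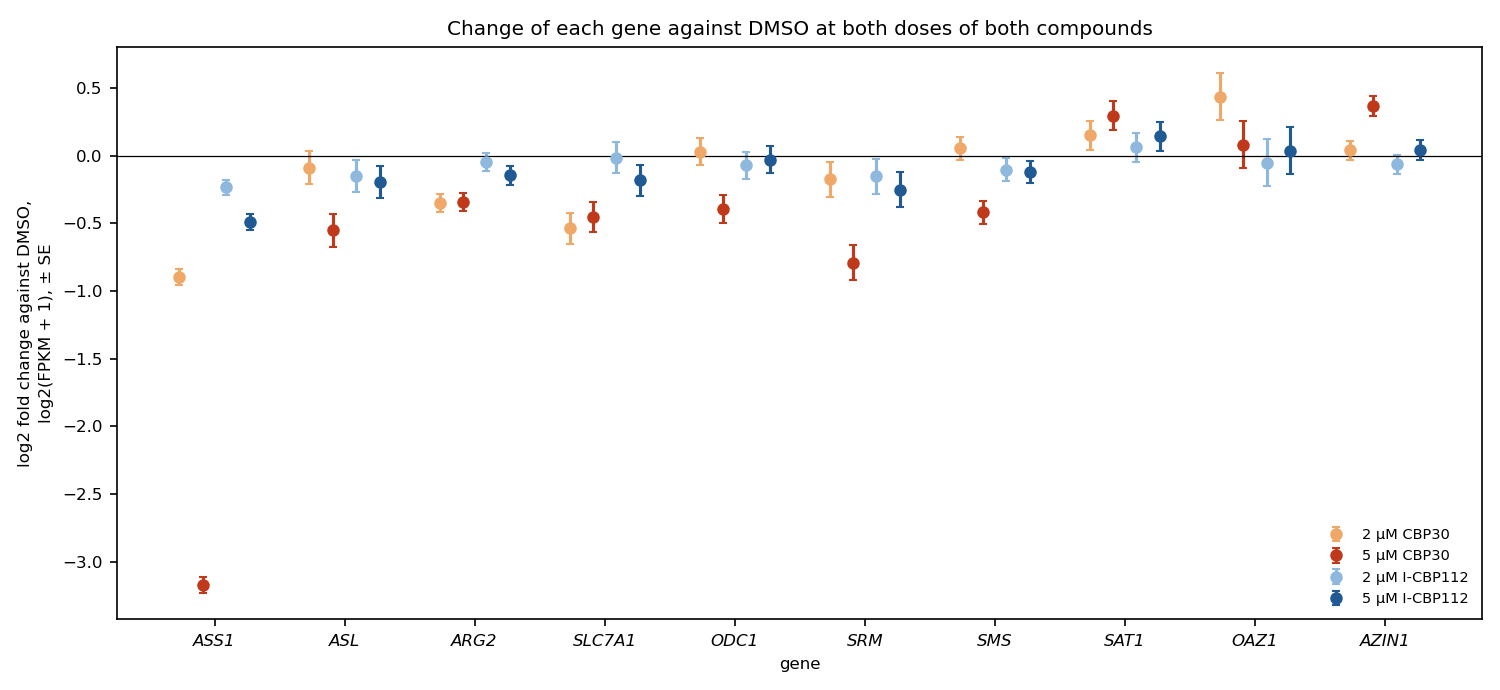
Log2 fold change against DMSO on the log2(FPKM + 1) scale (vertical axis) of each gene (horizontal axis) for 4 treatments, with points for the limma estimate and bars for its SE. ASS1 with 5 µM CBP30 lies lowest at -3.17, followed by ASS1 with 2 µM CBP30 at -0.90 and SRM with 5 µM CBP30 at -0.79, and AZIN1 with 5 µM CBP30 lies above 0 at 0.37.

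With 2 µM CBP30 against DMSO, SLC7A1 and ARG2 fell. They were 2 of the 9 genes tested and 0 rose, where 16.3% of all genes fell and 15.9% rose. In a fit of only these 4 samples 0 of the 9 passed, where 164 of all 12788 genes were lower and 143 higher. SLC7A1 fell by 0.54 ± 0.11 (limma adjusted p = 0.0124) and ARG2 by 0.35 ± 0.07 (limma adjusted p = 0.00957). The median over the 9 was 0.03, against 0.01 over all genes. This group holds the library that stood apart. The ratio of its replicate 1 to replicate 2 ran from 0.750 for SLC7A1, whose transcript of 7343 bases is the longest of the 10, to 1.53 for OAZ1, with 1148 bases, and had a Spearman correlation of -0.70 with transcript length over the 10 genes, which share these libraries. After the length trend was removed from each sample 4 genes passed: ARG2, SLC7A1 and SRM, lower, and OAZ1, higher. Of all 11758 genes with a known length 2652 were then lower and 2646 higher. The main fit had 2079 lower and 2032 higher of 12788. Without either replicate of this group more genes passed, over all genes as well as among the 9. With 1 sample left out the log2 difference was -0.74 to -0.34 for SLC7A1 and -0.41 to -0.29 for ARG2. Those of ASL, ODC1, SRM, SMS, AZIN1 and SAT1 crossed 0 between these fits. Fewer passed without either replicate of DMSO, over all genes as well as among the 9.

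With I-CBP112 no gene of the 9 passed at either dose. At 5 µM against DMSO 0 of 9 passed in either direction (limma), with 0 at an unadjusted p under 0.05, where 3.28% of all genes fell and 3.84% rose. The largest log2 difference was that of SRM, -0.25 ± 0.13 (95% interval -0.56 to 0.05), and the median was -0.12, against 0.00 over all genes. Leaving either library of 2 µM CBP30 out of the fit lowers the shared estimate of the spread. More genes then passed at 5 µM I-CBP112, over all genes as well as among the 9. At 2 µM against DMSO 0 of 9 passed, with 0 at an unadjusted p under 0.05, where 0.735% of all genes fell and 0.868% rose. More passed at this dose too, over all genes as well as among the 9, without either library of 2 µM CBP30. The 95% intervals at 2 µM ran from -0.46 to 0.36 for OAZ1 and from -0.21 to 0.11 for ARG2, so changes of this size were not excluded. All comparisons with DMSO share the same 2 control samples.

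SRM, SMS and ODC1 of polyamine synthesis and ASL were lower at the higher dose of CBP30. From 2 to 5 µM CBP30, 4 of 9 genes fell and 1 rose, where 21.3% of all genes fell and 17.6% rose. SRM fell by 0.62 ± 0.13 (limma adjusted p = 0.0132), SMS by 0.47 ± 0.08 (adjusted p = 0.00817), ASL by 0.46 ± 0.12 (adjusted p = 0.0239) and ODC1 by 0.42 ± 0.10 (adjusted p = 0.0191) in the limma fit. AZIN1 rose by 0.33 ± 0.07 (limma adjusted p = 0.0147). For ARG2 the log2 difference between the doses was 0.01 ± 0.07 (95% interval -0.15 to 0.17) and for SLC7A1 0.09 ± 0.11 (95% interval -0.18 to 0.35). AMD1, the remaining gene of polyamine synthesis, differed by 0.05 between the doses and did not pass. With the length trend removed ARG2 was higher at 5 than at 2 µM, by 0.21 (limma adjusted p = 0.0389). The log2 difference of SLC7A1 was then -0.18 (limma adjusted p = 0.0188), and it ran from -0.11 to 0.29 with 1 sample left out, so its direction depended on the processing. Without either library of 5 µM CBP30 the calls of the 9 were lost, and fewer of all genes passed as well. In a fit of only the groups compared 0 of 9 passed. Of all 12788 genes 4 were lower and 2 higher there. The same kind of fit called 4165 lower and 3632 higher for 5 µM CBP30 against DMSO. The calls between the doses of CBP30 thus rest on a spread shared with the other groups. From 2 to 5 µM I-CBP112, 0 of 10 genes passed, with 1 at an unadjusted p under 0.05 (ASS1), where 0.00782% of all genes fell and 0.0547% rose. When the dose step of CBP30 was set against that of I-CBP112, 0 of 9 genes passed (limma), with 4 at an unadjusted p under 0.05 (SMS, ODC1, SRM and ASL, all more negative for CBP30), where 3.32% of all genes passed in the negative and 1.63% in the positive direction. That difference of steps was -0.46 ± 0.12 for SMS (limma adjusted p = 0.0657), and -0.59 to -0.32 with 1 sample left out. Without either library of 2 µM CBP30 more genes passed, over all genes as well as among the 9.

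The compounds were compared directly at matched doses. The study that reported these data describes I-CBP112 as less potent than CBP30. Whether equal concentrations block the bromodomains equally was not tested. At 5 µM, 3 of 9 genes were lower with CBP30 than with I-CBP112 and 1 was higher, where 17.9% of all genes were lower and 13.6% higher. SRM differed by -0.54 ± 0.13 (limma adjusted p = 0.0199), ODC1 by -0.36 ± 0.10 (adjusted p = 0.0324), SMS by -0.30 ± 0.08 (adjusted p = 0.0346) and AZIN1 by 0.33 ± 0.07 (adjusted p = 0.0142) in the limma fit. ASL differed by -0.36 ± 0.12 and ARG2 by -0.20 ± 0.07 without passing (limma adjusted p = 0.0588 and 0.0652). With 1 sample left out the number that passed changed over all genes as well as among the 9. It was higher without either library of 2 µM CBP30 and lower without any 1 of the other libraries. No call of the 9 was kept in every one of these fits. At 2 µM, 3 of 10 genes were lower with CBP30 and 0 higher, where 8.45% of all genes were lower and 7.13% higher. Beside ASS1 these were SLC7A1, by -0.52 ± 0.11 (limma adjusted p = 0.0274), and ARG2, by -0.30 ± 0.07 (adjusted p = 0.0311). Without either library of 2 µM CBP30 more genes passed, over all genes as well as among the 10. Fewer passed without any 1 of the other libraries. The calls of SLC7A1 and ARG2 were each lost in some of these fits. With 1 sample left out the log2 difference was -0.72 to -0.32 for SLC7A1 and -0.34 to -0.26 for ARG2. Those of ASL, ODC1, SRM and SAT1 crossed 0 between these fits. SRM, the gene that differed most at 5 µM among those tested, differed by -0.02 ± 0.13 at 2 µM (95% interval -0.33 to 0.28).

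**Figure D3:**
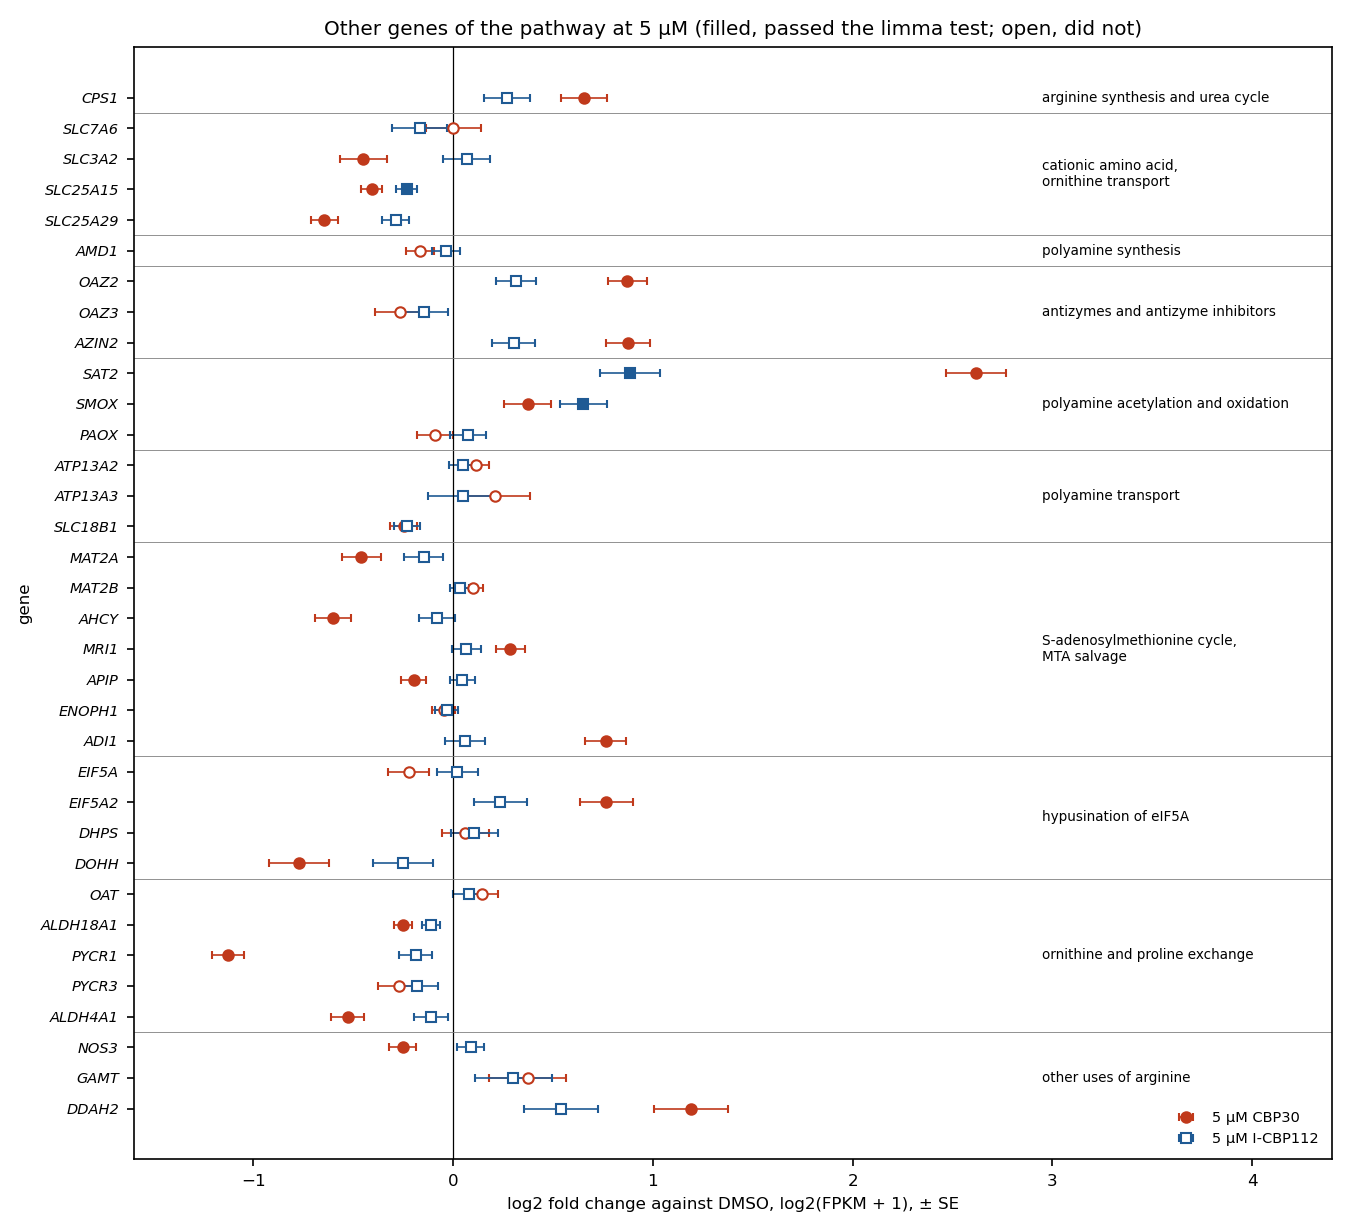
Log2 fold change against DMSO on the log2(FPKM + 1) scale (horizontal axis, bars for SE) of 34 other genes of the pathway (vertical axis, grouped by list) under 5 µM CBP30 (circles) and 5 µM I-CBP112 (squares), filled where the limma test was passed. SAT2 lies farthest to the right at 2.62 with 5 µM CBP30 and PYCR1 farthest to the left at -1.13.

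Around these 10 genes, 48 other genes of arginine, ornithine and polyamine metabolism were listed, and 35 had a mean of at least 0.5 FPKM and were tested. With 5 µM CBP30 13 of the 35 fell and 9 rose, with a median of -0.09, where 25.4% of all genes fell and 21.2% rose. With 2 µM CBP30 7 fell and 10 rose, with a median of 0.11, where 16.3% of all genes fell and 15.9% rose. With 5 µM I-CBP112 1 fell and 2 rose, beside 3.28% and 3.84% of all genes. With 2 µM I-CBP112 0 passed, with 5 at an unadjusted p under 0.05 (limma), beside 0.735% and 0.868% of all genes. Among the calls named for 5 µM CBP30, those of SLC3A2, SLC18B1, MRI1 and NOS3 passed in 6 of the 10 fits with 1 sample left out and that of SMOX in 3. The count of 17 at 2 µM CBP30 was 6 and 5 without replicates 1 and 2 of DMSO and 10 to 11 without any 1 library of the other 3 treatments. The counts at both doses of I-CBP112 were higher without either library of 2 µM CBP30, as they were over all genes. At 5 µM I-CBP112 the count was lower without any 1 of the remaining 8 libraries, as it was over all genes. The 13 genes not tested were all under 1 FPKM in every sample. They included OTC, which was listed at 0 throughout, ARG1, the cytosolic arginase of liver, and MTAP, which K562 cells are known to lack, at 0.103 to 0.215 FPKM.

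Among the pathway lists, that of polyamine acetylation and oxidation held the largest rise, in SAT2. A part of SAT2 in polyamine breakdown was not tested. SAT2, a paralog of SAT1 that is named diamine acetyltransferase 2, was at 3.33 and 2.85 FPKM with DMSO, 17.9 and 13.7 at 2 µM CBP30, and 25.2 and 23.0 at 5 µM CBP30. SAT2 under I-CBP112 was at 5.77 and 5.86 FPKM at 2 µM and 5.70 and 7.52 FPKM at 5 µM. Every treated sample was above both DMSO samples. SAT2 rose by 2.62 ± 0.15 with 5 µM CBP30 (limma adjusted p = 2.65e-05), by 2.03 ± 0.15 with 2 µM CBP30 (adjusted p = 0.000219) and by 0.89 ± 0.15 with 5 µM I-CBP112 (adjusted p = 0.0173). SHBG, which overlaps SAT2 on the opposite strand, was at 0 to 0.353 FPKM. SMOX, spermine oxidase, rose by 0.63 ± 0.12 with 2 µM CBP30 (limma adjusted p = 0.00781), by 0.37 ± 0.12 with 5 µM CBP30 (adjusted p = 0.0351) and by 0.65 ± 0.12 with 5 µM I-CBP112 (adjusted p = 0.0215). With 1 sample left out the calls at 5 µM I-CBP112 passed in 7 of 10 fits for SAT2 and in 2 of 10 for SMOX. PAOX, the remaining gene of this list, did not pass.

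The list of antizymes and their inhibitors had 2 of 3 tested genes higher with 5 µM CBP30, where 21.2% of all genes rose. OAZ2, another antizyme, was at 26.7 and 28.8 FPKM with DMSO, 51.8 and 42.1 at 2 µM CBP30, and 51.1 and 52.1 at 5 µM CBP30. OAZ2 under I-CBP112 was at 31.1 and 34.2 FPKM at 2 µM and 35.5 and 34.0 FPKM at 5 µM. It rose by 0.87 ± 0.10 with 5 µM CBP30 and by 0.73 ± 0.10 with 2 µM CBP30 (limma adjusted p = 0.000451 and 0.00218), while OAZ1 passed at neither dose, and at both once the length trend was removed. AZIN2, another antizyme inhibitor, listed under an older symbol, rose from 0.246 and 0.265 FPKM with DMSO to 1.33 and 1.28 with 5 µM CBP30 (limma adjusted p = 0.000670), and is named here after its values were seen.

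Proline, made from ornithine or glutamate, is the other main route of this carbon, and PYCR1, ALDH4A1 and ALDH18A1 of that list fell with 5 µM CBP30. PYCR1, a mitochondrial pyrroline-5-carboxylate reductase, was at 180 and 172 FPKM with DMSO, 156 and 132 at 2 µM CBP30, and 81.3 and 78.6 at 5 µM CBP30. PYCR1 under I-CBP112 was at 160.2 and 166 FPKM at 2 µM and 158 and 150.2 FPKM at 5 µM. It fell by 1.13 ± 0.08 with 5 µM CBP30 (limma adjusted p = 6.34e-05), and its dose step was more negative for CBP30 than for I-CBP112 by 0.75 ± 0.11 (limma adjusted p = 0.0235). ALDH4A1, which oxidises pyrroline-5-carboxylate to glutamate, fell by 0.53 ± 0.08 and ALDH18A1, which starts the route from glutamate, by 0.25 ± 0.04 with 5 µM CBP30. OAT, the transaminase between ornithine and this route, did not pass.

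In the list of cationic amino acid and ornithine transport 3 of 4 tested genes fell with 5 µM CBP30, where 25.4% of all genes fell. SLC25A29, a mitochondrial carrier of basic amino acids, fell by 0.65 ± 0.07, SLC3A2, the heavy chain of several amino acid exchangers, by 0.45 ± 0.12 and SLC25A15, the mitochondrial ornithine carrier, by 0.41 ± 0.05. SLC25A15 was the gene of the pathway lists that fell with 5 µM I-CBP112, by 0.23 ± 0.05 (limma adjusted p = 0.0452), and this did not pass with median centring, quantile normalization, a replicate block, no filter or a filter at 5 FPKM, and passed in 2 of the 10 fits with 1 sample left out. SLC7A6, a light chain for exchange of arginine, fell by 0.50 ± 0.14 with 2 µM CBP30, at 12.5 FPKM in the library that stood apart and 17.7 in the other, and by 0.26 without that library. It was at 21.6 and 21.2 FPKM with 5 µM CBP30, against 20.9 and 21.9 with DMSO. CPS1, the first enzyme of the urea cycle, rose by 0.65 ± 0.12 with 5 µM CBP30 (limma adjusted p = 0.00330), from 3.22 and 3.66 FPKM with DMSO to 6.05 and 5.92 FPKM. SLC18B1, a vesicular polyamine transporter, fell by 0.25 ± 0.07 with 5 µM CBP30, and 2 other genes of polyamine transport did not pass.

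Spermidine and spermine synthase draw their aminopropyl groups from S-adenosylmethionine, and this list of 7 tested genes had 3 lower and 2 higher with 5 µM CBP30, where 25.4% of all genes fell and 21.2% rose. MAT2A, which makes S-adenosylmethionine, fell by 0.46 ± 0.10, and AHCY, which clears S-adenosylhomocysteine, fell by 0.60 ± 0.09, from 207 and 204 FPKM with DMSO to 136 and 134 FPKM. ADI1, of the methionine salvage route, rose by 0.76 ± 0.10, from 30.7 and 33.8 FPKM to 54.5 and 56.3 FPKM, and MRI1, of the same route, by 0.29 ± 0.07. AMD1, whose product prepares the aminopropyl donor, fell by 0.22 ± 0.07 with 2 µM CBP30 (limma adjusted p = 0.0498) and did not pass with 5 µM. This call was lost in 9 of the 10 fits with 1 sample left out.

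Spermidine is also the donor for hypusine, the modified lysine of the translation factor eIF5A. DOHH, the last enzyme of that modification, fell by 0.77 ± 0.15 with 5 µM CBP30, from 14.7 and 13.1 FPKM with DMSO to 7.68 and 7.73 FPKM. EIF5A2 rose by 0.77 ± 0.13, from 2.82 and 3.22 FPKM to 5.71 and 5.94 FPKM, while EIF5A, the abundant form at 490.0 and 507 FPKM with DMSO, stood at 424 and 429.9 FPKM and did not pass. DHPS, the first enzyme of the modification, rose by 0.43 ± 0.12 with 2 µM CBP30, at 80.1 FPKM in the library that stood apart and 60.7 in the other against 53.2 and 49.8 with DMSO, and by 0.23 without that library. It did not pass with 5 µM. Among other uses of arginine, DDAH2, linked to the breakdown of methylarginines, rose by 1.19 ± 0.18 with 5 µM CBP30 and by 1.29 ± 0.18 with 2 µM CBP30 (limma adjusted p = 0.00180 and 0.00272). GAMT, of creatine synthesis, rose by 0.72 ± 0.19 with 2 µM CBP30, with 67.6 FPKM in the library that stood apart and 41.5 in the other, and by 0.38 without that library. NOS3, a nitric oxide synthase, fell by 0.25 ± 0.07 with 5 µM CBP30 and rose by 0.25 ± 0.07 with 2 µM CBP30, or by 0.16 without that library. The 2 µM calls of SLC7A6, DHPS, GAMT and NOS3 each passed in 2 of the 10 fits with 1 sample left out, those without a library of 2 µM CBP30.

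The genes whose pattern was most like that of ASS1 were found by the Euclidean distance of their 4 log2 fold changes against DMSO, among the 8996 genes whose mean reached 5 FPKM. They were MIR631, FAM178B, PVT1, ACSM3 and G0S2, with distances of 0.60, 0.66, 0.72, 0.73 and 0.75. ACSM3 was at 454 and 471 FPKM with DMSO, 146 and 156 at 2 µM CBP30, and 46.0 and 43.7 at 5 µM CBP30. ACSM3 under I-CBP112 was at 374 and 404 FPKM at 2 µM and 348 and 339.8 FPKM at 5 µM. FAM178B was at 104 and 99.9 FPKM with DMSO and at 7.27 and 6.80 with 5 µM CBP30. At 105 and 109 FPKM with 2 µM I-CBP112 it was not below DMSO, unlike ASS1. PVT1 was at 28.9 and 30.2 FPKM with DMSO and at a mean of 3.89 with 5 µM CBP30, and G0S2 at 15.1 and 14.5 and at 2.00 and 1.82. MIR631, a microRNA gene, was listed at 0 in 6 of the 10 samples, 1 of them a DMSO sample, and its place rests on 4 samples. These likenesses follow from the choice of ASS1 and are a description.

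**Figure D4:**
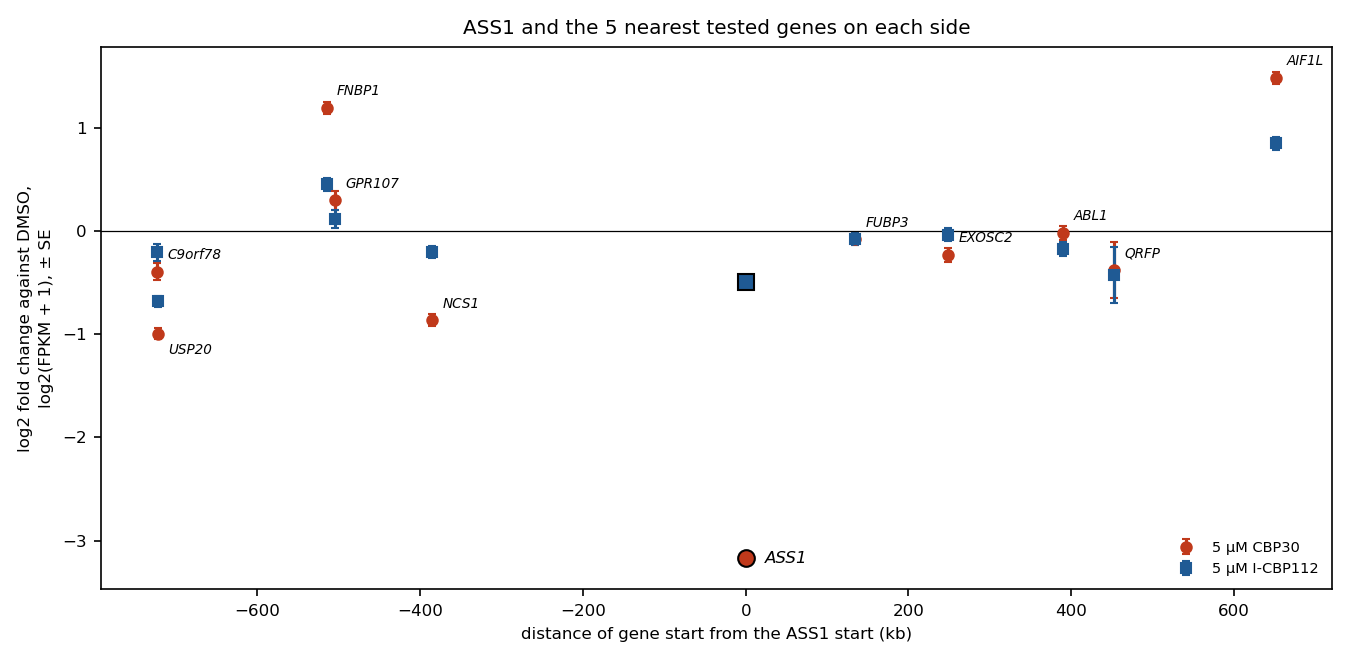
Log2 fold change against DMSO on the log2(FPKM + 1) scale (vertical axis, bars for SE) of ASS1 and of the 5 nearest tested genes on each side, by the distance of their starts from the start of ASS1 in kb (horizontal axis), as circles for 5 µM CBP30 and squares for 5 µM I-CBP112. ASS1 is at -3.17 with 5 µM CBP30, and its neighbours lie between -0.995 and 1.48.

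The neighbours of ASS1 on chromosome 9 did not share one direction. Of the 5 nearest tested genes on each side, 4 fell with 5 µM CBP30, 3 rose and 3 did not pass, with a median of -0.16, where 25.4% of all genes fell and 21.2% rose. The nearest on the far side of the gene, FUBP3, starts 134.6 kb beyond the ASS1 start and was at 38.7 and 38.7 FPKM with DMSO and 37.3 and 35.7 with 5 µM CBP30, without passing. NCS1, 385.7 kb before the start, fell by 0.87 ± 0.06 with 5 µM CBP30 (limma adjusted p = 4.53e-05). ABL1, 390.3 kb beyond the start and known as part of the fusion gene of K562, was at 63.1 and 63.1 FPKM with DMSO and 62.7 and 61.8 with 5 µM CBP30, and did not pass. USP20 fell by 0.995 ± 0.0538 and AIF1L rose by 1.48 ± 0.06 with 5 µM CBP30, the extremes of the 10, and both moved the same way with 5 µM I-CBP112, by -0.68 and 0.85 (limma adjusted p = 0.000993 and 0.000581).

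Some members share sequence with other loci. GENCODE names 14 processed or other pseudogenes after ASS1, 3 after SRM and 1 each after ASL, SMS and OAZ1, and none of them has a row in the table, so reads that match a copy may have been placed differently from reads of the gene. The span of ODC1 holds the small RNA gene SNORA80B, VTI1B overlaps ARG2 and JSRP1 overlaps OAZ1, both on the opposite strand, and whether strand was used in counting is not given in the sources used here.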

How the data were processed

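Poly(A)+ RNA of 10 K562 samples was sequenced in single reads of 50 bases. The deposited table holds FPKM per gene symbol, which the authors made on hg19; the submitters' notes name TopHat2 2.0.10, Bowtie 1.0.0, SAMtools 0.1.19, Cufflinks 2.2.1 and Cuffnorm. FPKM carry no read depth, and precision rests on 2 replicates per group. The 12788 of 23284 genes whose mean reached 0.5 FPKM, all 10 members included, were compared by limma 3.58.1 (R 4.3.3) after a log2(FPKM + 1) transform, in 1 fit of the 5 groups with an eBayes trend and 5 residual degrees of freedom. P-values were adjusted over all genes tested by Benjamini-Hochberg, with calls at 0.05. They set each difference against the spread between replicates, estimated over all 5 groups. An exact permutation test of 2 against 2 samples cannot go below p = 0.333. The fold change on this scale understates changes of low genes. The fit was tested on simulated data.

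The members and gene lists were chosen with earlier results of these data known. Named were the 10 members, up to 4 called genes per list with a mean of at least 1 FPKM and the largest change, 5 genes most like ASS1 and its 5 nearest neighbours on each side. The values of 1 gene of the proline list are not reported here. Positions, lengths and promoters came from GENCODE v44lift37 on hg19, where 19844 genes were matched by symbol or older symbol. Alternatives were another pseudocount or filter, median centring, quantile normalization, no eBayes trend, only the groups compared, a replicate block, removal of the length trend, and 1 sample left out.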

Additional observations from a re-analysis of the deposited data

How the results depend on the processing

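The number of members that passed was 7 for 5 µM CBP30 against DMSO, 2 for 2 µM CBP30, 0 for either dose of I-CBP112, 5 for the dose step of CBP30, 0 for that of I-CBP112, 4 and 3 for the compounds at 5 and 2 µM, and 0 for the difference of dose steps. These are counts of 9 members, without ASS1, except for the dose step of I-CBP112 and the compounds at 2 µM, where all 10 were tested. A pseudocount of 0.1 gave 1 pathway gene at 2 µM I-CBP112, a filter at 5 FPKM gave 1 at 5 µM I-CBP112, and quantile normalization gave 1 member for the difference of dose steps. A fit of only the groups compared gave 0 members and 1 pathway gene at 2 µM CBP30, 2 and 8 at 5 µM I-CBP112, 0 for the dose step of CBP30, and 7 and 0 for the compounds at 5 and 2 µM. Over all genes that fit called 4 lower and 2 higher for the dose step of CBP30. For the compounds at 2 µM it called 9 lower and 5 higher. With the length trend removed the members were 4 at 2 µM CBP30, 1 at 5 µM I-CBP112, 8 for the dose step of CBP30, 7 and 5 for the compounds at 5 and 2 µM, and 3 for the difference of steps, with 9 and 4 pathway genes at 5 and 2 µM I-CBP112. Adding a replicate block to that gave 4, 1, 8, 7, 5 and 2 members and 9 and 3 pathway genes. Over all 11758 genes with a known length, removal of the trend alone gave 1014 lower and 1024 higher at 5 µM I-CBP112. The main fit had 419 and 491 of 12788 there. For the dose step of CBP30 these counts were 2506 and 2425, against 2724 and 2255 in the main fit. For the difference of steps they were 860 and 672, against 424 and 208. The replicate block alone gave 7, 2, 0, 0, 5, 0, 4, 2 and 0 members in the order of the first sentence. Deviations from the group mean of samples with the same number had correlations of -0.068 to 0.094 over 10 pairs. No strong shared deviation was thus seen, and whether such samples were prepared together is not known. Under that block ASL took the place of ODC1 among the 4 members for the compounds at 5 µM, and ARG2 was lost at 2 µM, which left ASS1 and SLC7A1. The cause of these changes was not tested.

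With 1 sample left out, members that passed numbered 4 to 8 at 5 µM CBP30, 0 to 6 at 2 µM CBP30, 0 to 4 and 0 to 1 at 5 and 2 µM I-CBP112, 0 to 7 for the dose step of CBP30, 0 to 7 and 1 to 9 for the compounds at 5 and 2 µM, and 0 to 7 for the difference of steps, and pathway genes 5 to 21 at 2 µM CBP30 and 0 to 13 and 0 to 4 at 5 and 2 µM I-CBP112. A group left with 1 sample was assumed to vary like the others. The number of all genes that passed also changed between these fits, so the ranges do not describe these genes alone.

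Some log2 differences changed sign, and that of SLC7A1 in the dose step of CBP30 passed the test after removal of the length trend. Median centring gave log2 differences of -0.028 for ARG2 in the dose step of CBP30 and 0.0073 for SRM between the compounds at 2 µM. Quantile normalization gave -0.10 for ODC1 and -0.0013 for SMS at 2 µM CBP30, 0.0125 for SLC7A1 at 2 µM I-CBP112, 0 for ODC1 in the dose step of I-CBP112 and -0.04 for ODC1 between the compounds at 2 µM. Removal of the length trend, with or without the block, gave -0.019 for ODC1, -0.047 for SMS and -0.018 for SAT1 at 2 µM CBP30, -0.18 for SLC7A1 in the dose step of CBP30, -0.019 for ASL and -0.10 for SAT1 between the compounds at 2 µM, and -0.044 for SLC7A1 in the difference of steps.

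With 1 sample left out, the ranges that crossed 0 at 2 µM CBP30 were -0.13 to 0.19 for ODC1, -0.038 to 0.12 for AZIN1, -0.079 to 0.19 for SMS, -0.014 to 0.32 for SAT1, -0.29 to 0.12 for ASL and -0.40 to 0.056 for SRM. At 5 µM I-CBP112 they were -0.024 to 0.11 for AZIN1, -0.073 to 0.0165 for ODC1 and -0.0052 to 0.082 for OAZ1, and at 2 µM I-CBP112 -0.11 to 0.012 for ARG2, -0.13 to 0.0045 for AZIN1, -0.021 to 0.15 for SAT1 and -0.11 to 0.0098 for OAZ1. In the dose step of CBP30 they were -0.11 to 0.29 for SLC7A1, -0.025 to 0.036 for ARG2 and -0.020 to 0.31 for SAT1, and in that of I-CBP112 -0.0018 to 0.087 for ODC1 and -0.042 to 0.012 for SMS. Between the compounds they were -0.14 to 0.27 for ASL, -0.058 to 0.26 for ODC1, -0.077 to 0.25 for SAT1 and -0.25 to 0.21 for SRM at 2 µM, -0.0018 to 0.086 for OAZ1 at 5 µM, and -0.10 to 0.23 for SAT1 in the difference of steps.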
